A study of Mus musculus with 6 samples.

Results

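The genes described here are 4 regulators of bone mineralization, Dmp1, Phex, Smpd3 and Dlx5, in the radii and ulnae of newborn mice. They were found as the probe sets whose only platform gene symbol was 1 of these 4 names, which gave 4 probe sets, 1 per gene, of 8997 in the table. Total RNA was hybridised to 6 single-colour whole-transcript arrays, 3 from del175k mutant mice, which carry the del175k mutation of Tnni2, and 3 from wild-type littermates. All mice were newborns of strain 129sv, and no treatment was given in the labels. Tnni2 encodes the fast skeletal muscle form of troponin I, and the arrays were run to find genes with other levels in mutant bone. The labels give neither the zygosity of the mutants nor whether an array held the bones of 1 mouse or of a pool, so p-values here reflect only how far these samples differ among themselves, part of which may be technical.

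Bone mineralizes when calcium and phosphate crystals form in matrix vesicles and along collagen. Osteoblasts and osteocytes govern this through the local balance of phosphate and pyrophosphate, through acidic matrix proteins that bind mineral, and through hormones that set the blood phosphate level. Dmp1 encodes dentin matrix protein 1, an acidic phosphoprotein of osteocytes that nucleates mineral. Phex encodes a zinc peptidase of osteoblasts and osteocytes. Loss of either in mice or in patients raises the phosphate-wasting hormone FGF23 and causes hypophosphatemic rickets. Smpd3 encodes neutral sphingomyelinase 2, which releases ceramide from sphingomyelin, and mice with the fragilitas ossium deletion in this gene have poorly mineralized, fragile bones. Dlx5 encodes a homeodomain transcription factor that acts in osteoblast differentiation.

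None of the 4 genes differed between mutant and wild-type bone at a Benjamini-Hochberg adjusted p of 0.05 in limma. Of all 8997 probe sets 0, or 0.0%, passed that threshold. Without adjustment 669 probe sets, or 7.44%, had p under 0.05, and the unmoderated statistic also gave 0 calls after adjustment. None of the 4 genes was among the 669, with Dmp1 just outside. Once arrays were centred on their medians, Dmp1 and Smpd3 were among the 9.6% of probe sets under 0.05 before adjustment (limma adjusted p = 0.516 and 0.512), and with quantile normalization both were among 9.49% (limma adjusted p = 0.506 each). Mean levels of Dmp1, Phex and Dlx5 were higher in the mutants, by 0.73, 0.54 and 0.36 on the log2 scale, and that of Smpd3 was lower, at -0.65. All of these are differences of log2 intensity, mutant minus wild-type, for probe sets whose background correction and scaling are not stated. The median over all probe sets was 0.04, with 56.7% of them higher and 43.3% lower in the mutants by mean.

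**Figure D1:**
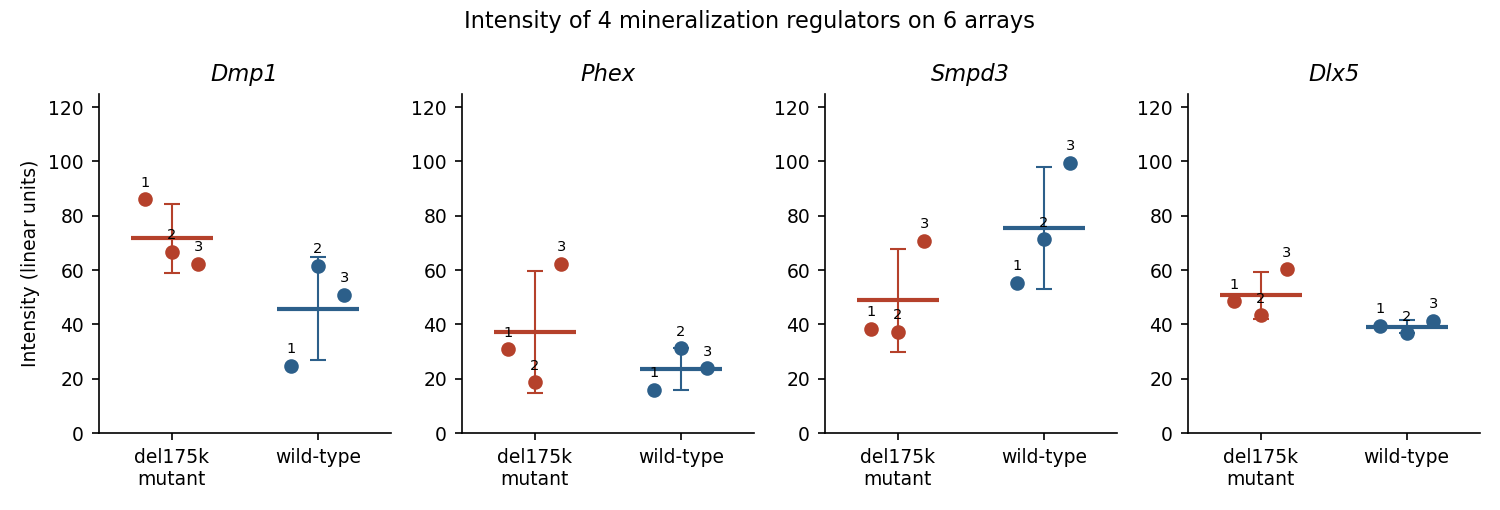
Intensity on a linear scale (vertical axis) of Dmp1, Phex, Smpd3 and Dlx5 on the 3 mutant and 3 wild-type arrays. Points are arrays with their replicate number, bars the mean and whiskers the SD. Mutant points lie above all wild-type points for Dmp1 and Dlx5, while the groups overlap for Phex and Smpd3.

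1 array stood apart from the rest. Median intensity was 45.5 to 47.8 on the mutant arrays and 39.6 to 48.4 on the wild-type arrays, where 39.6 belonged to wild-type replicate 1. Its median probe set was at -0.30 (log2) relative to the mean of the other 5 arrays, and 1205 of its probe sets fell short of 20 intensity units, a number that was 405 to 558 elsewhere. Differences of the 4 genes, the counts of the related gene lists and the related genes that moved most are therefore also given without it. Over all probe sets the median difference was then -0.03 (log2). Every probe set in the table reached an intensity of 20 on at least 3 arrays, so dimmer genes were not analysed here. The collagen gene Col1a1 was bright, at 7320 to 7780 on the mutant arrays and 6550 to 7810 on the wild-type arrays. Markers of muscle, and on some arrays of skin, were also present, as given below, so the arrays did not measure bone alone. The osteocyte gene Sost, which encodes an inhibitor of Wnt signalling, was dim, at 14.5 to 32.4 in the mutants and 16.7 to 23.6 in the wild-type, and Mepe and Fgf23 were not analysed here.

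Dmp1 had intensities of 86.1, 66.8 and 62.3 on mutant arrays 1 to 3, against 24.8, 61.7 and 51.0 on wild-type arrays 1 to 3. Every mutant value was above every wild-type value, but the lowest mutant and the highest wild-type value nearly met, and wild-type replicate 1 was far below all the rest. The means were 71.7 ± 12.6 in mutant bone and 45.8 ± 19.0 in wild-type bone (SD, n = 3 each). The log2 difference was 0.73 ± 0.33 (SE), or 1.66-fold, with a 95% interval of -0.0002 to 1.47 (limma adjusted p = 0.671). By unadjusted p it ranked 670 of 8997. Without wild-type replicate 1 the log2 difference was 0.34 ± 0.20 (limma adjusted p = 0.757), and with arrays weighted by their quality it was 0.43. Within the mutants the highest Dmp1 value was 1.38 times the lowest, and within the wild-type 2.49 times.

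Relative to the median of its own array, Dmp1 stood at 0.86, 0.55 and 0.38 on the log2 scale in mutant replicates 1 to 3, and at -0.68, 0.35 and 0.09 in the wild-type. The low value of wild-type replicate 1 thus remained after centring, which takes out only a shift common to all probe sets of an array. Whether other traits of that array lowered the value was not tested. The groups still did not overlap. Such an order was common, since 9.18% of all probe sets had every mutant value above every wild-type value as deposited and 9.7% had it after centring on the median.

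Phex had intensities of 30.8, 18.8 and 62.3 on the mutant arrays, against 15.9, 31.3 and 23.8 on the wild-type arrays. Mutant replicate 3 alone was above the wild-type range, mutant replicate 2 was below all but 1 wild-type array, and the groups overlapped. The means were 37.3 ± 22.5 in mutant bone and 23.6 ± 7.69 in wild-type bone (SD, n = 3 each), and the mutant coefficient of variation of 60.2% was the largest of the 4 genes. The log2 difference was 0.54 ± 0.41 (SE), or 1.45-fold, with a 95% interval of -0.39 to 1.46 (limma adjusted p = 0.76). It was 0.08 ± 0.34 without mutant replicate 3. Array weights were lowest for wild-type replicate 1 (0.232) and mutant replicate 3 (0.78). They were highest for wild-type replicate 3 (2.15) and mutant replicate 2 (2.11). With these weights the log2 difference was 0.09. Without mutant replicate 2 it was 0.94 ± 0.38 (limma adjusted p = 0.963), and without the dim wild-type replicate 1 it was 0.28 ± 0.46. For Phex 2 of the 6 values were under 20, whereas the other 3 genes had none that low, so its folds depend more on how background was handled.

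The sequences before the annotated starts are shown for Dmp1 and Phex, the pair whose loss raises FGF23, and searched for the motif of Dlx5 among others. Those of Smpd3 and Dlx5 were not used here. They are the 250 bases before each start in RefSeq on build GRCm38.p6, written 5′ to 3′ along the gene, with 2 starts for Dmp1 and 1 for Phex. Capitals mark letters that match TAATT, the core bound by DLX-type homeodomains, TGTGGT or TGCGGT, the core bound by RUNX factors, or CACGTG, an E-box, on either strand.
Dmp1, chr5:104197325-104197574 (+ strand): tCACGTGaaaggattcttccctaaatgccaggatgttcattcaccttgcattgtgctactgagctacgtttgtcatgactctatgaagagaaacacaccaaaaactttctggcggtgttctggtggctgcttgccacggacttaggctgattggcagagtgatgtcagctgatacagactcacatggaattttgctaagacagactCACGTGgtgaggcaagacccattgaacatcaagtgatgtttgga
Dmp1, chr5:104202367-104202616 (+ strand): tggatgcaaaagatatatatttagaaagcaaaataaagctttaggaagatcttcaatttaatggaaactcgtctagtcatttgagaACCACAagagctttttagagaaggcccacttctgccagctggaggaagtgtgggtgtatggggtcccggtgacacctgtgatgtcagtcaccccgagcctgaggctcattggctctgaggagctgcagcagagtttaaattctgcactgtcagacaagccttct
Phex, chrX:157415287-157415536 (- strand): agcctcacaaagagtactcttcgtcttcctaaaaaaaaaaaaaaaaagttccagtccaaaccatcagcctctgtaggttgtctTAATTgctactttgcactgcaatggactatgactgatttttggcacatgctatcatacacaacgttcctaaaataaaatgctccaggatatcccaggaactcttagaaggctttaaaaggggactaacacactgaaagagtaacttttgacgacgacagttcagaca

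The upstream start of Dmp1 had CACGTG beginning 249 and 44 bases before it, the downstream start had a RUNX core read on the other strand (ACCACA) 164 bases before it, and Phex had TAATT 167 bases before its start. No match overlapped another. Over the same window of 32851 promoters in the table, 25.03% held the DLX-type core, 18.6% a RUNX core and 6.02% the E-box. This last motif was added to the search after the Dmp1 sequence had been read. A match is a description of letters, and the arrays measured no binding.

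Smpd3 had a lower mean in mutant bone, unlike the other 3 genes. Its intensities were 38.4, 37.4 and 70.8 on the mutant arrays, against 55.3, 71.3 and 99.6 on the wild-type arrays. Mutant replicates 1 and 2 lay below the whole wild-type range, mutant replicate 3 lay inside it, and the groups overlapped. The means were 48.8 ± 19.0 in mutant bone and 75.4 ± 22.5 in wild-type bone (SD, n = 3 each). The log2 difference was -0.65 ± 0.31 (SE), which makes the mutant level 0.637 times the wild-type level, with a 95% interval of -1.34 to 0.04 (limma adjusted p = 0.689).

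The size of the Smpd3 difference depended on which array was left out. It was -0.95 ± 0.29 without mutant replicate 3 (limma adjusted p = 0.372), -0.43 without wild-type replicate 3, and -0.85 without the dim wild-type replicate 1. Array weights gave -0.999 ± 0.25 (limma adjusted p = 0.176), the smallest adjusted p of any of the 4 genes under the alternatives tried. Relative to the array median Smpd3 stood at -0.31, -0.29 and 0.57 on the mutant arrays and at 0.48, 0.56 and 1.06 on the wild-type arrays (log2), so on this scale mutant replicate 3 was just above the lower 2 wild-type arrays.

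Dlx5 had the smallest spread. Its intensities were 48.5, 43.4 and 60.3 on the mutant arrays, against 39.5, 36.7 and 41.4 on the wild-type arrays, and every mutant value was above every wild-type value. The means were 50.7 ± 8.65 in mutant bone and 39.2 ± 2.39 in wild-type bone (SD, n = 3 each), with coefficients of variation of 17.0% and 6.1%. The log2 difference was 0.36 ± 0.20 (SE), or 1.28-fold, with a 95% interval of -0.09 to 0.81 (limma adjusted p = 0.709).

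After each array was centred on its median, the Dlx5 groups overlapped. Mutant replicate 2 was then at -0.07, just below wild-type replicate 1 at -0.004, while the other mutant values were 0.03 and 0.34 and the other wild-type values -0.40 and -0.21 (log2). The log2 difference was 0.30 after this centring, 0.29 after quantile normalization and 0.37 without the dim wild-type replicate 1. Leaving out 1 array at a time gave 0.23 to 0.47, all of the same sign.

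**Figure D2:**
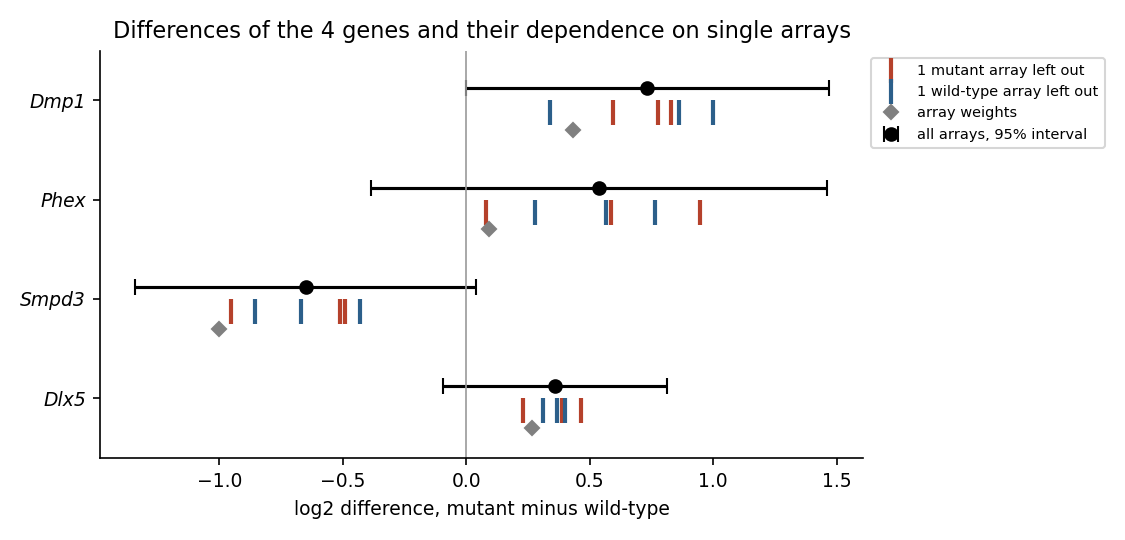
Log2 difference of each gene, mutant minus wild-type (horizontal axis). Black points and bars are the limma estimate and its 95% interval from all 6 arrays, ticks are estimates with 1 mutant or 1 wild-type array left out, and diamonds are estimates with array weights. Each interval reaches 0, and Phex moves the most with single arrays, between 0.08 and 0.94.

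Of the 4 genes, 2, Dmp1 and Dlx5, had groups that did not overlap on the deposited scale, and 1, Dmp1, after median centring. The corresponding shares of all probe sets in either direction were 13.1% and 15.8%. As deposited, 3.89% of probe sets had every mutant value below every wild-type value, and 0 of the 4 genes did. With 4 genes, chosen when results of these data were known, these counts are a description. The intervals leave room for large changes as well as none. For Dmp1 and Phex they reach 2.77-fold and 2.76-fold higher, for Dlx5 1.76-fold higher, and for Smpd3 down to 0.395 times the wild-type level, so the missed threshold does not show that the levels were alike.

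A factor common to all values of 1 array cancels in ratios between its genes. The handling of background does not cancel, which bears most on ratios with Phex, under 20 on 2 arrays. The log2 ratio of Dmp1 to Smpd3 was 1.16, 0.84 and -0.18 on mutant arrays 1 to 3, against -1.16, -0.21 and -0.97 on wild-type arrays 1 to 3. Its mean was 0.61 ± 0.70 in the mutants and -0.78 ± 0.50 in the wild-type (SD, n = 3 each), a difference of 1.38, or 2.61-fold. The groups did not overlap, although mutant replicate 3 and wild-type replicate 2 nearly met.

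The log2 ratio of Phex to Smpd3 was -0.32, -0.99 and -0.18 in the mutants, against -1.80, -1.19 and -2.07 in the wild-type, a difference of 1.19. That of Smpd3 to Dlx5 was -0.34, -0.22 and 0.23 in the mutants, against 0.48, 0.96 and 1.27 in the wild-type, a difference of -1.01. In both the groups were apart, whereas in the ratios of Dmp1 to Phex, Dmp1 to Dlx5 and Phex to Dlx5 they overlapped, with differences of 0.20, 0.37 and 0.18. Over all other probe sets, the groups were apart for 32.3% of ratios to Smpd3, 34.2% of ratios to Dmp1, 26.1% of ratios to Dlx5 and 3.12% of ratios to Phex. Ratios to Smpd3 with groups apart were thus common in the table, and the 3 found here are not called particular to these genes. The ratios were chosen after the single-gene differences were known and were given no test.

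**Figure D3:**
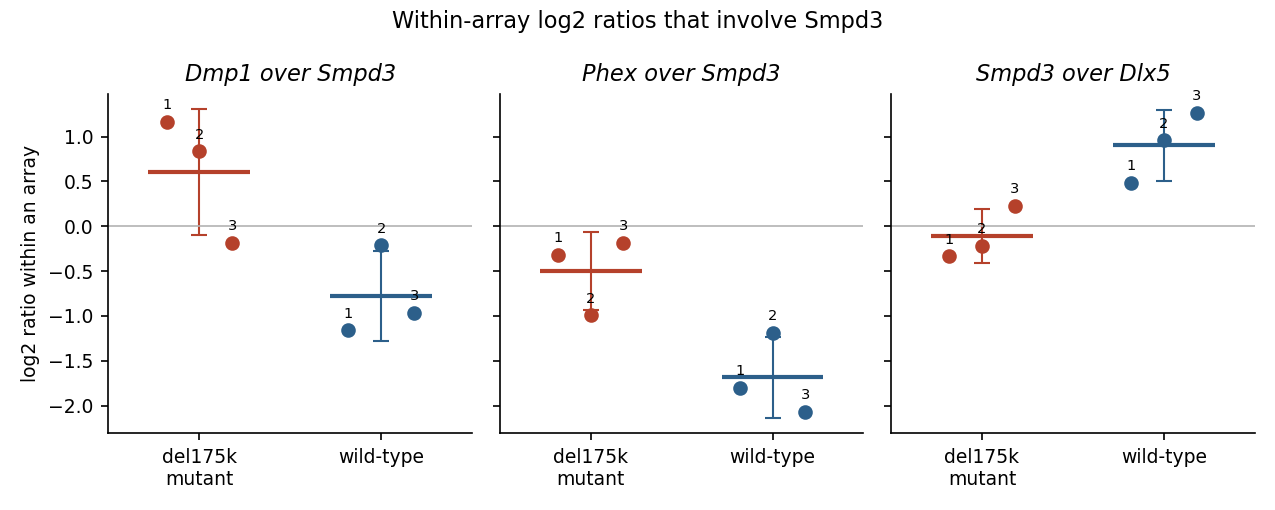
Log2 ratio of a pair of genes within an array (vertical axis) for Dmp1 over Smpd3, Phex over Smpd3 and Smpd3 over Dlx5. Points are arrays with their replicate number, bars the mean and whiskers the SD. In each pair the mutant points lie on 1 side of the wild-type points.

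The genes whose pattern over the 6 arrays was most like that of each regulator were found by Pearson correlation of median-centred log2 values among 5623 other genes. For Dmp1 these were Crebbp, Med13 and Lrp6 (r = 0.99 each), which encode a histone acetyltransferase, a Mediator subunit and a Wnt co-receptor. They were 3 of 417 genes with r above 0.9 to Dmp1. For Smpd3 they were Copg1, a coat protein of transport vesicles, Cand2 and Pcnx3 (r = 0.996 each), among 212 genes above 0.9. For Phex they were Cept1, an enzyme of phospholipid synthesis, the chromatin organizer Satb1 and Mtpn (r = 0.98, 0.98 and 0.97), and for Dlx5 Rnf215, Rbm7 and Cilp2 (r = 0.97 each), where 21 and 12 genes were above 0.9. With 6 arrays that share their scaling and 1 dim array, such values are a description of these arrays.

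Genes of phosphate and pyrophosphate handling were mixed. Of 19 listed, 10 were measured, 0 passed in either direction, 6 had higher and 4 lower means, and the median log2 difference was 0.11. The tally without wild-type replicate 1 turned to 4 higher and 6 lower, with a median of -0.18. Slc20a2, a sodium-phosphate importer, had intensities of 150, 135 and 91.0 in the mutants, against 60.4, 84.2 and 84.3 in the wild-type (log2 difference 0.70 ± 0.25, limma adjusted p = 0.638), with all mutant values above the wild-type ones. Anxa5, a calcium-binding annexin of matrix vesicles, had 268, 402 and 274 in the mutants, against 424, 450 and 445 in the wild-type (-0.51 ± 0.22, limma adjusted p = 0.667), all below. Alpl, the phosphatase that breaks down pyrophosphate, was at 0.14 ± 0.23 and Ank, which exports pyrophosphate, at 0.63 ± 0.29, both named after their values were seen. Without wild-type replicate 1, Slc20a2 was at 0.54, Anxa5 at -0.53 and Ank at 0.45, while Alpl turned to -0.02.

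Phospho1 encodes the phosphatase that frees phosphate inside matrix vesicles and was singled out after its values were seen. Its intensities were 32.2, 35.3 and 92.6 in the mutants, against 57.7, 64.5 and 115 in the wild-type. As with Smpd3, mutant replicates 1 and 2 lay below all wild-type arrays, mutant replicate 3 lay within their range, and wild-type replicate 3 was the highest. By limma it was at -0.68 ± 0.41 (log2 difference and SE, adjusted p = 0.723). Without wild-type replicate 1 it was at -0.87 ± 0.48. The osteoblast transcription factor gene Sp7, also picked after its values were seen, was likewise highest on replicate 3 of each group. It was at 21.3, 28.2 and 61.1 in the mutants, against 26.4, 30.1 and 65.4 in the wild-type. Sp7 differed by -0.17 ± 0.43 (SE), or -0.42 ± 0.49 without wild-type replicate 1. Such an order was not particular to mineralization genes. The tendon gene Scx had 23.1, 26.1 and 57.7 in the mutants, against 43.3, 36.6 and 68.7 in the wild-type. Slc20a2 and Ank, of the same list as Phospho1, were instead lowest on replicate 3 within the mutants.

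Mineral-binding matrix proteins, among them the relatives of Dmp1 called SIBLING proteins, were measured for 6 of 15 genes, with 5 higher, 1 lower and 0 passing (median log2 difference 0.22). There were 3 higher and 3 lower without wild-type replicate 1, with a median of 0.004. Mgp, which encodes an inhibitor of calcification, had intensities of 619, 626 and 405 in the mutants, against 178, 322 and 339 in the wild-type. All mutant values were above the wild-type ones, and limma gave a log2 difference of 1.004 ± 0.29 (SE) with an adjusted p of 0.591. Fam20c, the kinase that phosphorylates Dmp1 and other secreted proteins, was at 0.31 ± 0.25, and Ibsp, the SIBLING protein bone sialoprotein, at 0.36 ± 0.35, the second of these named after its values were seen. Without wild-type replicate 1, Mgp was at 0.71 ± 0.23, Fam20c at 0.29 ± 0.27 and Ibsp at 0.06 ± 0.33. Of 16 further osteocyte genes 10 were measured, with 5 higher, 5 lower and 0 passing (median 0.06, and -0.005 with the same tally without wild-type replicate 1). Capg, an actin-capping protein gene, was at 0.56 ± 0.20 and Cd109, which encodes a surface protein, at 0.46 ± 0.22. Without wild-type replicate 1 they were at 0.64 and 0.40. Capg had intensities of 28.6, 26.0 and 22.3 in the mutants, against 19.2, 14.8 and 18.1 in the wild-type. It reached 20 on the mutant arrays alone and was in the table only through them, so its count as higher carries no weight. After median centring its groups overlapped.

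Osteoblast transcription factors were measured for 12 of 21 genes, with 8 higher, 4 lower and 0 passing (median log2 difference 0.16). They were split into 6 higher and 6 lower without wild-type replicate 1, with a median of -0.02. Lef1, counted as higher, had 26.9, 20.6 and 21.0 in the mutants, against 18.5, 17.2 and 18.6 in the wild-type. It reached 20 on the mutant arrays alone and was in the table only through them, so its direction carries no weight. Zfhx4 and Zfp521, both zinc-finger genes, had the smallest p, at 0.56 ± 0.25 and 0.50 ± 0.26, and at 0.34 and 0.25 without wild-type replicate 1. Dlx3, the 1 other measured member of the 5 listed DLX relatives of Dlx5, had intensities of 15.3, 16.4 and 27.6 in the mutants, against 25.6, 17.1 and 23.1 in the wild-type (-0.18 ± 0.27, limma adjusted p = 0.871, and -0.06 without wild-type replicate 1). Its groups overlapped, and most of its values were near 20. Osteoblast matrix and surface genes were measured for 23 of 24, with 12 higher, 11 lower, 0 passing, and a median of 0.003. This even split depended on the dim array. Without it 6 were higher and 17 lower, with a median of -0.13, against -0.03 over all probe sets. Lox, the collagen cross-linking enzyme, was at 0.86 ± 0.30 and the cadherin gene Cdh11 at 0.48 ± 0.22, and both differences were smaller without wild-type replicate 1, at 0.57 and 0.34.

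Around Smpd3, 12 of 23 genes of sphingomyelin and ceramide metabolism were measured, with 10 higher, 2 lower and 0 passing (median log2 difference 0.10). With the dim array left out this turned to 4 higher and 8 lower, with a median of -0.09. Cert1, the ceramide transfer protein, was at 0.63 ± 0.25 and the ceramide synthase gene Cers2 at -0.18 ± 0.19, and without that array they were at 0.44 and -0.26. Smpd1, the acid sphingomyelinase and the other sphingomyelinase measured, was at -0.13 ± 0.19, named after its values were seen, compared with -0.65 for Smpd3. Of 6 peptidases related to Phex 1 was measured, Ece1, the endothelin-converting enzyme, at 0.21 ± 0.26, or 0.12 without wild-type replicate 1. Hypertrophic cartilage, where mineralization of the growth plate begins, had 9 of 10 genes measured, with 7 higher, 2 lower and 0 passing (median 0.19), and 5 higher and 4 lower without wild-type replicate 1 (median 0.02). Mmp13, its collagenase, was at 1.10 ± 0.34 (limma adjusted p = 0.591), or 0.75 ± 0.28 without wild-type replicate 1. Ihh, the hedgehog signal of prehypertrophic cells, was at -0.44 ± 0.23, or -0.39 ± 0.23 without that array.

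**Figure D4:**
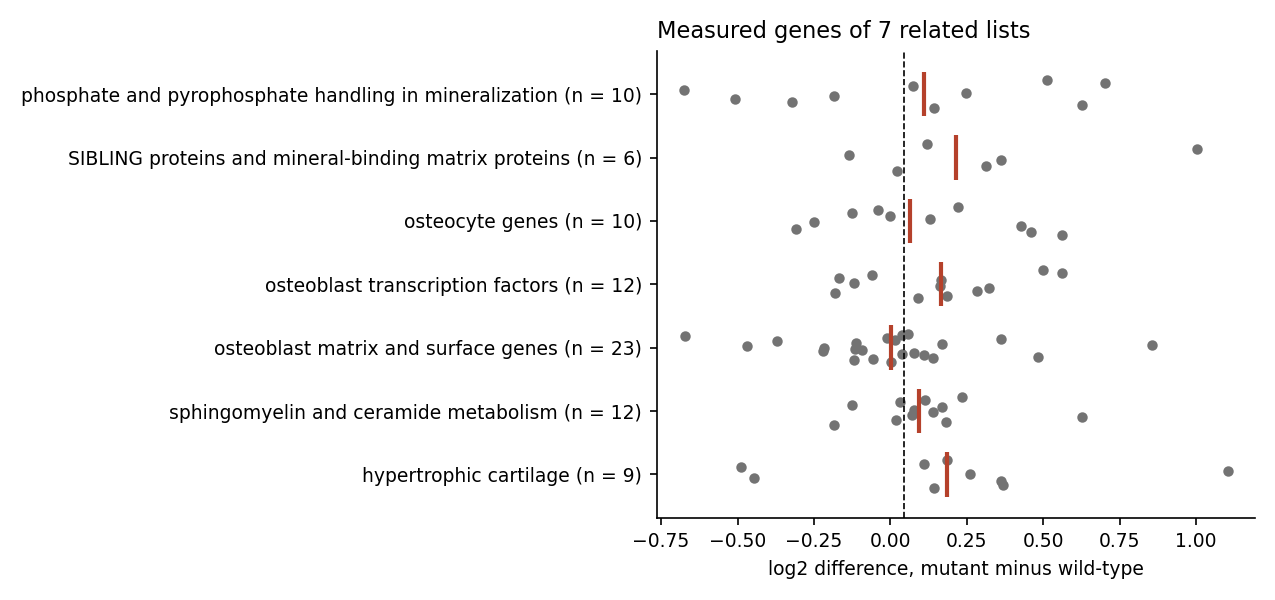
Log2 difference, mutant minus wild-type (horizontal axis), of every measured gene (grey points) in the 7 related lists with at least 6 measured genes. Red ticks are list medians, which run from 0.003 to 0.22 with all 6 arrays (-0.18 to 0.02 without wild-type replicate 1), and the dashed line is the median of all probe sets, 0.04.

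These are bulk samples, so fewer cells of a type and less RNA per cell cannot be told apart, and markers of other cells also differed between arrays. The osteoblast markers (6 of 11 measured) summed to 13090 to 14350 intensity units in the mutants and 11310 to 14190 in the wild-type. Sums on the linear scale mostly follow the brightest members. On mutant replicate 1, Col1a1 and Col1a2 were at 7320 and 5430 of a sum of 13250, so the other osteoblast markers hardly count in it. Osteoclast markers (6 of 10) summed to 1327 to 1875 in the mutants and 687.5 to 1172 in the wild-type. Chondrocyte markers (11 of 11) summed to 6298 to 7371 in the mutants and 4747 to 7179 in the wild-type. Fast muscle markers (8 of 11) summed to 4593 to 5794 in the mutants and 3549 to 7143 in the wild-type. None of the measured markers was at 0 on any array.

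Skin and dividing-cell markers moved with some of the arrays that set the values above. Epidermal markers (6 of 9) summed to 75.3, 460.4 and 51.3 on the mutant arrays, against 1798, 1248 and 47.3 on the wild-type arrays. The wild-type array with the lowest Dmp1 and Phex, replicate 1, was thus also the one with most skin signal. Wild-type replicate 2, next in skin signal, had the highest Dmp1 and Phex of the wild-type arrays, at 61.7 and 31.3. Markers of dividing cells (7 of 9) summed to 261.9, 226.5 and 368.2 in the mutants, against 351.9, 335.2 and 527.9 in the wild-type, and like Smpd3 were highest on replicate 3 of each group. Relative to their mean over the 6 arrays, osteoblast markers stood at -0.23, -0.16 and 0.38 in the mutants and at -0.17, 0.04 and 0.14 in the wild-type (mean log2 after median centring). Among the mutants, the array with the highest Phex, Smpd3 and Dlx5, replicate 3, was thus also the one with the highest osteoblast markers. This was not particular to osteoblast markers. On the same scale slow muscle markers and tendon and fibroblast markers were also highest on that array, at 0.61 and 0.2. Chondrocyte and erythroid markers were instead at their lowest among the mutants there, at -0.13 and -0.71. The part of these cell types in the 4 genes' values was not tested.

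**Figure D5:**
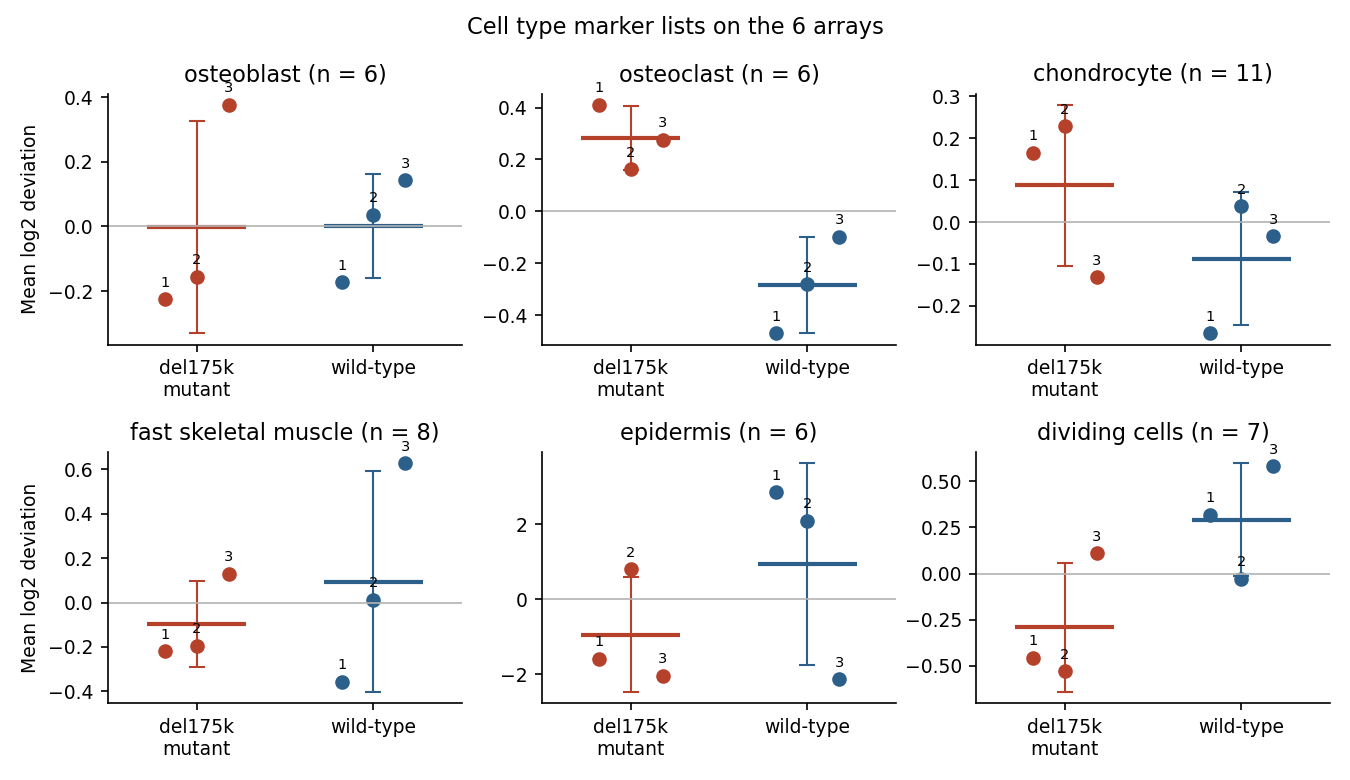
Mean log2 deviation of 6 cell type marker lists from their average over the 6 arrays, after centring each array on its median (vertical axis, own scale per panel). Points are arrays with their replicate number, bars the mean and whiskers the SD. Epidermal markers range from -2.14 to 2.85, and osteoblast markers peak on mutant replicate 3.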

How the data were processed

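The table the authors deposited holds 1 intensity per probe set and array, on a linear scale. Per the labels' protocols, RNA was purified on RNeasy columns and labelled cDNA was made from amplified cRNA; background correction, summarisation and scaling are not given in the sources used here. The number of arrays limits the precision. Gene symbols came from the platform annotation of 2016 (6398 of 8997 probe sets with 1 symbol, 576 with several, 2023 with none) and were checked through Entrez identifiers against RefSeq, where 0 changed. Log2 intensities, with no filter or further normalization, were fitted with lmFit and eBayes of limma 3.58.1 (R 4.3.3), two-sided, with Benjamini-Hochberg adjustment over all probe sets. For genes with several probe sets the brightest was used. Named were the 4 genes, the 3 most correlated genes for each, and per list the members that passed or else the 2 of smallest p. Genes and lists were chosen with earlier results of these data known. The fit was tested on simulated data. Alternatives covered normalization, filters, variance model, array weights, log offset, replicate block and leaving out arrays. Python 3.11.15, pandas 2.3.3 and matplotlib 3.10.9 made tables and plots.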

Additional observations from a re-analysis of the deposited data

How the results depend on the processing

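Over 54 alternative estimates of the 4 genes, covering normalization, filters, variance model, log offset, array weights, replicate block and left-out arrays, 0 changed sign and 0 passed the threshold. Leaving out 1 array at a time gave 0.34 to 0.999 for Dmp1, 0.08 to 0.94 for Phex, -0.95 to -0.43 for Smpd3 and 0.23 to 0.47 for Dlx5 (log2 difference). Phex, under 20 on 2 arrays, had no estimate with a filter on dim probe sets, and no gene had a second probe set to average. limma called 4 probe sets with array weights and 0 to 15 with 1 array left out, 15 without mutant replicate 3, and none of the 4 genes was among them; the cause was not tested. Median centring without wild-type replicate 1, added after seeing the data, called 0 and gave 0.38 for Dmp1 and -0.82 for Smpd3.

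The labels do not say whether the replicate numbers pair the samples, and with 3 arrays per group the values below cannot decide it. Deviations of same-numbered arrays from their group means correlated at -0.107, -0.0255 and 0.315, and only the arrays numbered 3 correlated best with their own number. With the replicate number as a block limma called 0 probe sets, and Smpd3 was at -0.65 ± 0.19 (SE, adjusted p = 0.637), Dmp1 at 0.73 ± 0.36, Phex at 0.54 ± 0.42 and Dlx5 at 0.36 ± 0.18.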
